A study of Sus scrofa with 12 samples.

Results

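The 9 genes described here code for secreted factors that act on blood vessels, measured in porcine granulosa cells: VEGFA, VEGFB, VEGFC, PGF, ADM, APLN, NMB, EDN1 and ANGPTL4. They were taken by gene name from the deposited expression table, where all 9 were found among 18060 genes. The cells were primary granulosa cells from antral follicles of crossbred sows, kept for 12 h in hypoxia (1% O2, 5% CO2, 94% N2) or in normoxia (21% O2, 5% CO2, 74% N2), with 3 biological replicates per condition. Each replicate gave an input library and an immunoprecipitated (IP) library, pulled down with an antibody to N6-methyladenosine (m6A, a methyl mark on mRNA adenosines), which makes 12 libraries. RNA levels come from the 6 input libraries, as FPKM (fragment counts scaled to transcript length and to the size of the library), and m6A peaks from 1 list per condition. All cells were cultured in medium with fetal bovine serum, and the sources used here do not say if each replicate is a separate animal, so p-values measure the spread between these libraries.

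The granulosa layer of a follicle has no blood vessels of its own, and capillaries reach only the theca around it. When oxygen is low, hypoxia-inducible factors (HIF) escape degradation and switch on genes such as VEGFA and ADM. VEGF family ligands bind receptor tyrosine kinases on endothelial cells: VEGFA binds FLT1 and KDR, PGF and VEGFB bind FLT1, and VEGFC acts mainly through FLT4 on lymphatic vessels. Adrenomedullin (ADM) and apelin (APLN) are peptide hormones that relax or remodel vessels, endothelin-1 (EDN1) contracts them, neuromedin B (NMB) is a peptide that acts on smooth muscle and nerves, and ANGPTL4 inhibits lipoprotein lipase and affects vessel permeability.

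Of 11 granulosa markers 8 were tested, and AMH, CYP19A1 and HSD17B1 stayed below 1 FPKM in each library. Of 7 endothelial markers in the table only PECAM1 reached 1 FPKM, and TEK and CLDN5 were at most 0.0308 FPKM. Summed FPKM of the granulosa markers ran from 72.9 to 83.1 in hypoxia and from 84.9 to 93.2 in normoxia, and that of 4 theca markers from 2.23 to 4.59 in hypoxia and from 5.96 to 7.45 in normoxia. Summed FPKM of the endothelial markers ran from 3.17 to 3.47 in hypoxia and from 7.02 to 7.39 in normoxia. Summed smooth muscle and pericyte markers, mostly ACTA2, ran from 2975 to 4261 in hypoxia and from 6742 to 8797 in normoxia. These sums are of FPKM as deposited, where the median log2 fold change of all tested genes, hypoxia over normoxia, was -0.265. The part of library scaling in these differences was not tested, nor was their part in the results. In bulk RNA fewer cells of a type and less RNA per cell cannot be told apart. Hypoxia library 3 stood apart: over the tested genes its Pearson r with hypoxia libraries 1 and 2 was 0.956 and 0.915, against 0.985 between those 2, while normoxia libraries correlated at 0.982 to 0.991. Results are therefore also given without it.

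VEGFA, ADM, APLN and NMB rose in hypoxia, and no ligand passed the test in the other direction. The test was limma on log2(FPKM + 1) across the 10196 genes that reached 1 FPKM in 3 or more libraries, with Benjamini-Hochberg adjustment, and it covered 8 of the 9 ligands; PGF was below the filter. Of all tested genes, 5.4% were called higher in hypoxia and 21.1% lower at an adjusted p under 0.05, and the median log2 fold change was -0.26. With a median-ratio factor per library 6.64% were called higher and 8.07% lower, with a median of -0.02. With the replicate number as a block the shares were 6.82% and 27.1%, and without hypoxia library 3 they were 11.2% and 31.2%. The same 4 of 8 ligands were called higher with median-ratio scaling and without each library in turn. The ligands were chosen with earlier results of these data known, so this count is not independent of the data. APLN and NMB reached the filter through the hypoxia libraries alone, so they had to differ once tested and their count is a description.

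**Figure D1:**
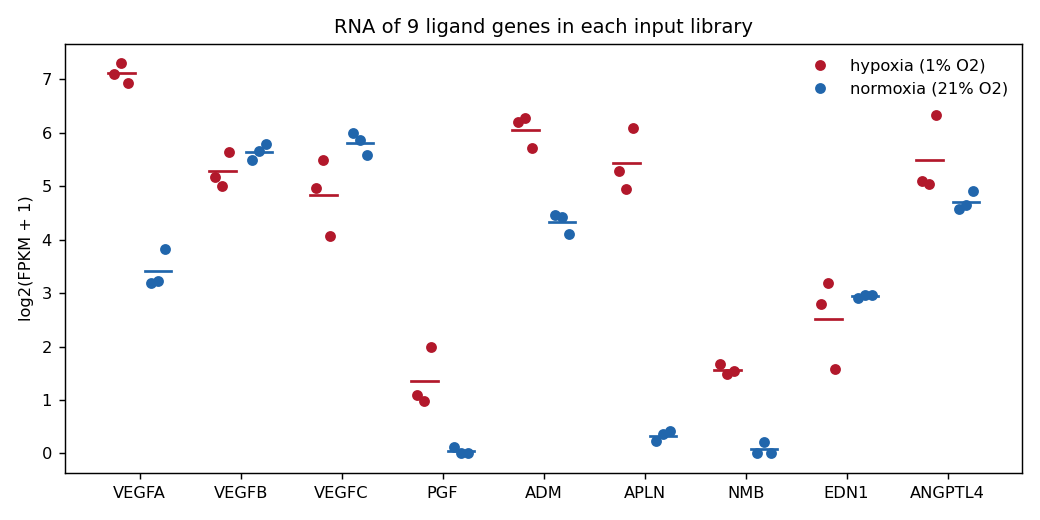
RNA of the 9 ligand genes as log2(FPKM + 1) in each input library, hypoxia in red and normoxia in blue; points are libraries and short lines are means of 3. VEGFA, PGF, ADM, APLN, NMB and ANGPTL4 have each hypoxia point above each normoxia point, VEGFC has each one below, and VEGFB and EDN1 overlap.

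The angiogenic factor gene VEGFA (ENSSSCG00000001695, Sscrofa11.1 chromosome 7, 38746052 to 38761366, plus strand) had 136.9, 156.4 and 121.7 FPKM in the hypoxia libraries, against 8.18, 8.36 and 13.2 FPKM in the normoxia libraries. The groups did not overlap, and the lowest hypoxia value was far above the highest normoxia value, that of normoxia library 3. Mean FPKM was 138 ± 17.4 in hypoxia and 9.91 ± 2.85 in normoxia (SD, n = 3 each), a ratio of 13.96. The log2 fold change was 3.70 (SE 0.21, limma adjusted p = 0.000172), the 21st largest rise of all tested genes, and was 3.79 without hypoxia library 3. VEGFA mRNA was above 98.3% of the genes in the table in hypoxia, and above 78.0% in normoxia.

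VEGFB (ENSSSCG00000054506, chromosome 2, 7872870 to 7876118, minus strand), a FLT1 ligand, did not pass the test. It had 35.3, 31.0 and 49.2 FPKM in hypoxia, against 43.8, 49.2 and 54.4 FPKM in normoxia. The groups overlapped through hypoxia library 3, and the log2 fold change was -0.37 (SE 0.20, limma adjusted p = 0.227). Without that library it was -0.55 (limma adjusted p = 0.0112). With median-ratio scaling it was -0.06, so its value as deposited lay close to the median of all genes.

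VEGFC (ENSSSCG00000015770, chromosome 15, 39039311 to 39132936, minus strand), a ligand of lymphatic vessel growth, had 30.2, 43.9 and 15.7 FPKM in hypoxia, against 62.6, 57.1 and 47.1 FPKM in normoxia. Each hypoxia value was below each normoxia value, which held for 34.9% of all tested genes, and hypoxia library 3 was the lowest. The log2 fold change was -0.98 (SE 0.35), with an unadjusted p of 0.0259 and a limma adjusted p of 0.0812. It was past the threshold at -0.59 (limma adjusted p = 0.0234) without hypoxia library 3 and at -1.30 (0.0162) without hypoxia library 2, and was -0.67 (0.139) with median-ratio scaling.

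PGF (ENSSSCG00000050616, chromosome 7, 98148994 to 98162741, minus strand), a ligand of FLT1 first found in placenta, was near the lower limit of the data. It had 1.13, 0.982 and 2.97 FPKM in hypoxia, against 0.0896 FPKM in normoxia library 1, while it was listed at 0 in normoxia libraries 2 and 3. The groups did not overlap, with hypoxia library 3 the highest. Only 2 libraries reached 1 FPKM, so it was not tested; with no filter on low values its log2 fold change was 1.31 (limma adjusted p = 0.0271, where 4.29% of all genes were called higher). The fifth family gene, VEGFD, was listed at 0 in 5 of the 6 libraries and at 0.0199 FPKM in hypoxia library 2.

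**Figure D2:**
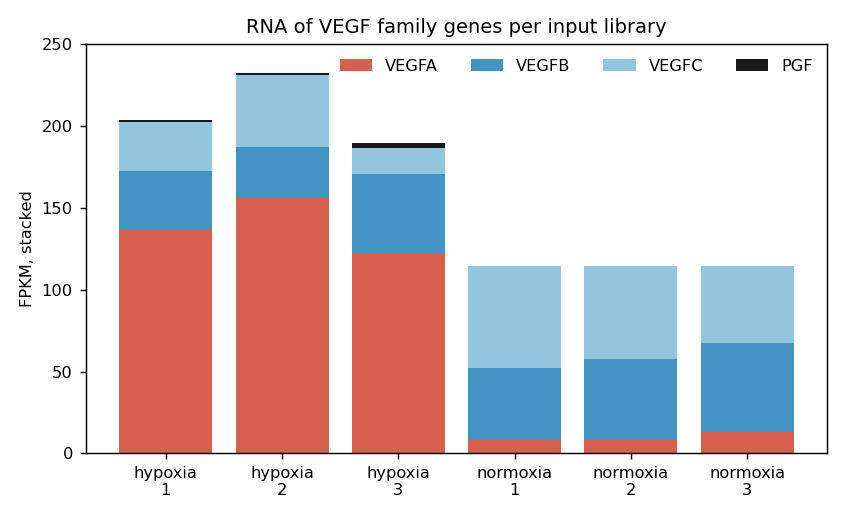
FPKM of VEGFA, VEGFB, VEGFC and PGF stacked for each input library, hypoxia on the left and normoxia on the right. VEGFA holds 64.2% to 67.3% of each hypoxia bar and 7.13% to 11.5% of each normoxia bar.

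The make-up of VEGF family RNA differed between conditions. VEGFA made up 67.3%, 67.3% and 64.2% of the summed FPKM of VEGFA, VEGFB, VEGFC, VEGFD and PGF in the hypoxia libraries, against 7.13%, 7.29% and 11.5% in the normoxia libraries. VEGFC made up 14.9%, 18.9% and 8.27% in hypoxia, against 54.6%, 49.8% and 41.0% in normoxia. VEGFB made up 18.9% ± 6.44 in hypoxia and 42.9% ± 4.64 in normoxia (SD, n = 3 each). FPKM is per length, so VEGFA was the most abundant of these mRNAs in each hypoxia library, and VEGFB or VEGFC in each normoxia library. PGF stayed at 0.423% to 1.57% of the sum in hypoxia. The summed FPKM was 203.6, 232 and 189.6 in hypoxia, against 114.6, 114.7 and 114.7 in normoxia. The sum was thus higher in hypoxia while the 2 genes that dominated in normoxia had lower means.

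A ratio of 2 genes within a library does not depend on how libraries are scaled. The log2 ratio of VEGFB to VEGFA was -1.87 ± 0.52 in hypoxia and 2.34 ± 0.27 in normoxia, a difference of -4.21. The log2 ratio of VEGFC to VEGFA was -2.32 ± 0.57 in hypoxia and 2.51 ± 0.59 in normoxia, a difference of -4.84 (SD, n = 3 each). In each case the conditions did not overlap and the sign of the ratio was opposite in hypoxia and normoxia libraries. The exact 2-sided permutation test gave p = 0.1 for both ratios (adjusted p = 0.1 over the 2), which is the smallest p that 3 against 3 libraries allow. The ratio of PGF to VEGFA was not computed because PGF was listed at 0.

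ADM (ENSSSCG00000013408, chromosome 2, 49229223 to 49231866, minus strand), which codes for the vasodilator peptide adrenomedullin, had 72.3, 76.1 and 51.3 FPKM in hypoxia, against 21.0, 20.6 and 16.2 FPKM in normoxia. The groups did not overlap, and library 3 was the lowest in each condition. The ratio of mean FPKM was 3.46, and the log2 fold change was 1.73 (SE 0.20, limma adjusted p = 0.00162). It was 1.90 without hypoxia library 3 and 2.03 with median-ratio scaling.

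APLN (ENSSSCG00000048443, chromosome X, 106236749 to 106246377, minus strand), which codes for the peptide hormone apelin, had the largest change of the 9 ligands. It had 37.8, 29.8 and 67.4 FPKM in hypoxia, against 0.170, 0.282 and 0.337 FPKM in normoxia. Its RNA was close to absent in each normoxia library and at a level like that of VEGFB in hypoxia, with hypoxia library 3 the highest. The ratio of mean FPKM was 171, but the normoxia values are low and FPKM carries no counting error. The log2 fold change was 5.11 (SE 0.29, limma adjusted p = 0.000177), the 7th largest of all tested genes, and 4.78 without hypoxia library 3. APLN reached the filter through the hypoxia libraries alone, so it had to differ once tested.

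NMB (ENSSSCG00000036907, chromosome 7, 52883128 to 52886642, plus strand), which codes for the bombesin-like peptide neuromedin B, also rose from a level near the lower limit of the data. It had 2.20, 1.79 and 1.91 FPKM in hypoxia, against 0.165 FPKM in normoxia library 2, while it was listed at 0 in normoxia libraries 1 and 3. The hypoxia libraries lay close together, hypoxia library 3 included. The log2 fold change was 1.49 (SE 0.14, limma adjusted p = 0.000738), a value that the pseudocount of 1 holds down. With a pseudocount of 0.1 it was 3.89. NMB reached the filter through the hypoxia libraries alone, so it had to differ once tested.

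EDN1 (ENSSSCG00000035598, chromosome 7, 8751695 to 8758348, plus strand), which codes for the vasoconstrictor endothelin-1, did not pass the test. It had 5.96, 8.07 and 1.99 FPKM in hypoxia, against 6.55, 6.76 and 6.77 FPKM in normoxia. The groups overlapped: hypoxia library 3 was the lowest of the 6 and hypoxia library 2 the highest, while normoxia libraries were almost equal. The log2 fold change was -0.42 (SE 0.39, limma adjusted p = 0.478), and turned to 0.047 (0.838) without hypoxia library 3.

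ANGPTL4 (ENSSSCG00000013599, chromosome 2, 70904531 to 70912974, minus strand), which codes for a secreted inhibitor of lipoprotein lipase, had 33.1, 31.9 and 79.4 FPKM in hypoxia, against 22.7, 24.1 and 29.1 FPKM in normoxia. Each hypoxia value was above each normoxia value, which held for 9.25% of all tested genes, and library 3 was the highest in each condition. The log2 fold change was 0.78 (SE 0.35, limma adjusted p = 0.148), so the difference did not pass against the spread between hypoxia libraries. Without hypoxia library 3 the value was 0.36 (limma adjusted p = 0.0740).

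**Figure D3:**
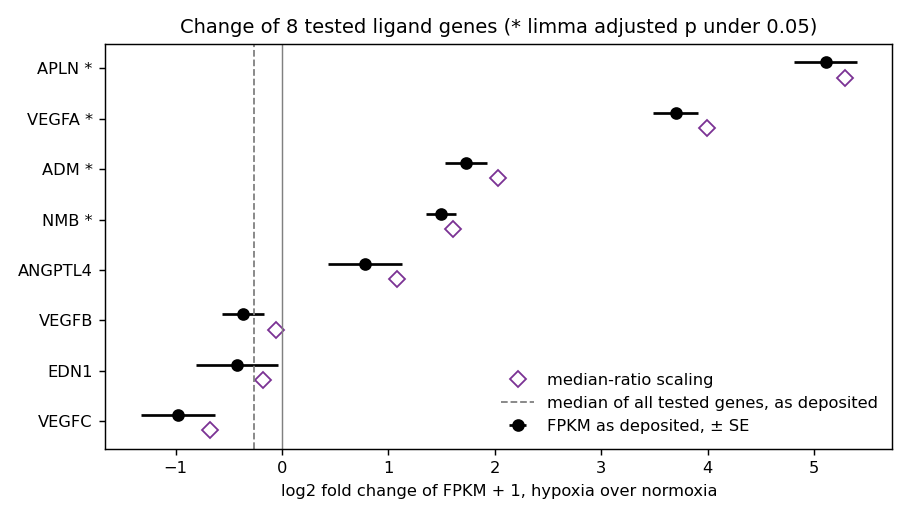
Log2 fold change of FPKM + 1, hypoxia over normoxia, of the 8 tested ligand genes: black points are FPKM as deposited with the SE of the limma fit, open diamonds are values after median-ratio scaling, and the dashed line is the median of all tested genes (-0.26). APLN, VEGFA, ADM and NMB lie between 1.49 and 5.11; VEGFB, EDN1 and VEGFC lie below 0.

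The authors' deposited table of the same comparison marks VEGFA, PGF, ADM, APLN and NMB as significant and up, with q-values of 5.62e-35, 2.47e-08, 5.18e-13, 3.81e-49 and 2.97e-11. That table marks 4.75% of its genes as significant and up, and 8.72% as significant and down. ANGPTL4 has a q-value of 0.00973 in the authors' deposited table but a fold of 1.90, and is not marked there. VEGFC has a q-value of 0.111, EDN1 of 0.889 and VEGFB of 0.940 in the authors' deposited table, and none of them is marked. The folds there equal the ratios of the mean FPKM given here, so the 2 sources differ in the test and not in the levels.

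The order of the ligands by level differed between the conditions. In hypoxia the order by mean FPKM was VEGFA, ADM, ANGPTL4, APLN, VEGFB, VEGFC, EDN1, NMB and PGF. VEGFA stood clear of ADM, and VEGFC of EDN1, while the libraries of neighbours from ADM to VEGFC overlapped, as did those from EDN1 to PGF. In normoxia the order was VEGFC, VEGFB, ANGPTL4, ADM, VEGFA, EDN1, APLN, NMB and PGF. There VEGFC and VEGFB overlapped, as did NMB and PGF, and the other neighbours were apart in each library.

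The tested genes outside the 9 ligands whose levels followed VEGFA most closely were KDM5B, RALGAPA2 and CTSV, with Pearson r of 0.9990, 0.9983 and 0.9971 over the 6 input libraries on the log2(FPKM + 1) scale. KDM5B codes for a histone demethylase, RALGAPA2 for a subunit of a Ral GTPase-activating complex, and CTSV for a cathepsin. KDM5B had 30.8, 30.5 and 29.8 FPKM in hypoxia, against 12.9, 13.02 and 14.8 FPKM in normoxia. In all, 34 genes had an r of at least 0.99, over libraries that fall into 2 groups of 3. Among the ligands, APLN, NMB and ADM had r of 0.978, 0.978 and 0.960 with VEGFA, ANGPTL4 0.647, EDN1 -0.35, VEGFB -0.65 and VEGFC -0.73.

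Of the listed receptor and receptor-partner genes, ACKR3 and RAMP3 rose in hypoxia and NRP2, EDNRB, ITGB3 and EDNRA fell. Of the 16 listed receptor genes found, 8 were tested, with 2 called higher and 4 lower. Over all tested genes 5.4% were called higher and 21.1% lower. The median log2 fold change was -0.48, beside -0.26 over all tested genes. With median-ratio scaling the counts were 2 and 2, beside 6.64% and 8.07% of all tested genes. RAMP3 reached the filter through the hypoxia libraries alone, and EDNRB and EDNRA through the normoxia libraries alone, so these 3 had to differ once tested and their calls are a description. APLNR and NMBR, also on the list, were not found by symbol, so they were not analysed here. The VEGF receptor genes were near 0 and below the filter: KDR had at most 0.240 FPKM, FLT1 at most 0.297 and FLT4 at most 0.149 in any library. FLT1 and FLT4 had each hypoxia value above each normoxia value, with means of 0.209 and 0.118 FPKM against 0.0422 and 0.0374. KDR overlapped. Among the tested genes, 9.25% had each hypoxia value above each normoxia value. NRP1, a co-receptor for VEGFA, had 11.8 ± 1.69 FPKM in hypoxia and 12.4 ± 0.472 in normoxia (SD, n = 3 each; limma adjusted p = 0.757).

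ACKR3, an atypical receptor that binds and removes adrenomedullin and the chemokine CXCL12, had 39.4, 36.6 and 45.2 FPKM in hypoxia, against 1.502, 1.34 and 1.31 FPKM in normoxia. Its values did not overlap and its log2 fold change was 4.12 (SE 0.15, limma adjusted p = 3.97e-05). RAMP3, a partner of CALCRL in an adrenomedullin receptor and below 1 FPKM in each normoxia library, had 1.67, 1.27 and 4.44 FPKM in hypoxia, against 0.153, 0.163 and 0.213 FPKM in normoxia. Its log2 fold change was 1.45 (limma adjusted p = 0.0159), and leaving out normoxia library 1 (0.0634), 2 (0.0716) or 3 (0.0553) ended the call. CALCRL itself was listed at 0 in each hypoxia library and at no more than 0.0284 FPKM in normoxia, so the receptor that RAMP3 pairs with was near 0 in these RNA data.

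NRP2, a co-receptor for VEGFC and semaphorins, had 3.65, 5.04 and 4.59 FPKM in hypoxia, against 11.2, 13.1 and 17.95 FPKM in normoxia. Its log2 fold change was -1.46 (limma adjusted p = 0.00358). The endothelin receptor gene EDNRB, below 1 FPKM in each hypoxia library, had 0.169, 0.198 and 0.219 FPKM in hypoxia, against 1.49, 1.81 and 1.28 FPKM in normoxia (-1.07, limma adjusted p = 0.00213). Neither gene's values overlapped between conditions, and both calls also held with median-ratio scaling (limma adjusted p = 0.0169 for NRP2 and 0.00367 for EDNRB). EDNRA, the other endothelin receptor gene, had -0.58 (limma adjusted p = 0.0344), not called with median-ratio scaling (0.0876), nor with hypoxia library 1 (0.102) or normoxia library 1 (0.135), 2 (0.134) or 3 (0.0530) left out. ITGB3, an integrin subunit of vessel growth, had -0.72 (limma adjusted p = 0.0166), not called with scaling (0.327), nor with hypoxia library 1 (0.0747) or normoxia library 1 (0.0593), 2 (0.0525) or 3 (0.0751) left out.

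**Figure D4:**
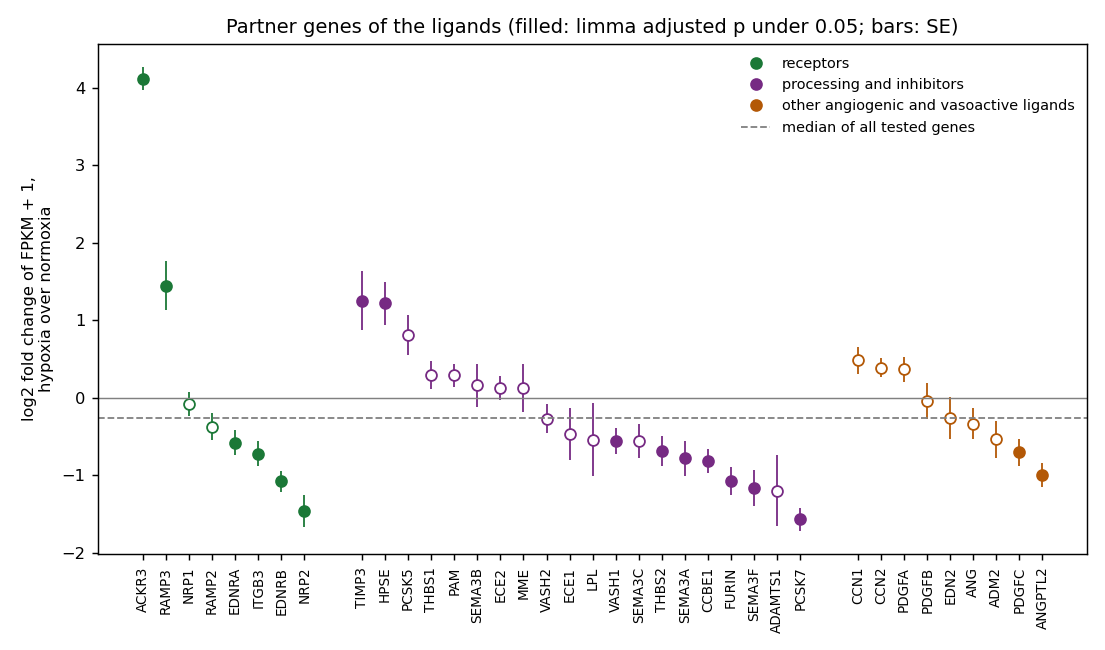
Log2 fold change of FPKM + 1, hypoxia over normoxia, of the tested receptor genes (green), processing and inhibitor genes (purple) and other angiogenic and vasoactive ligand genes (orange), with the SE of the limma fit; filled points have a limma adjusted p under 0.05. ACKR3 stands highest at 4.12 and PCSK7 lowest at -1.57.

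Among 20 tested genes that process or restrain these ligands, 2 were called higher and 7 lower. Over all tested genes 5.4% were called higher and 21.1% lower. The median log2 fold change was -0.51, beside -0.26 over all tested genes. With median-ratio scaling 3 were higher and 2 lower, beside 6.64% and 8.07% of all tested genes. Among the 7 called lower, PCSK7, SEMA3F, FURIN and CCBE1 had the largest log2 fold changes. PCSK7, a proprotein convertase that processes VEGFC, had 6.69, 7.72 and 6.65 FPKM in hypoxia, against 20.6, 24.8 and 23.0 FPKM in normoxia (-1.57, limma adjusted p = 0.000748). FURIN, another convertase of VEGFC, had 14.9 ± 2.94 FPKM in hypoxia and 32.2 ± 3.65 in normoxia (SD, n = 3 each), a log2 fold change of -1.07 (limma adjusted p = 0.00599, 0.0955 with scaling). CCBE1, a cofactor for the cleavage of VEGFC, had 0.728, 0.850 and 0.470 FPKM in hypoxia, against 2.095, 2.04 and 1.71 FPKM in normoxia (-0.81, limma adjusted p = 0.00916, 0.0552 without normoxia library 2). It reached the filter through the normoxia libraries alone, so it had to differ once tested. PCSK5, also a VEGFC convertase, had 3.62 ± 1.52 FPKM in hypoxia and 1.54 ± 0.169 in normoxia (0.81, limma adjusted p = 0.0573). PCSK5 did not pass in the main test, but was called higher with median-ratio scaling (1.02, limma adjusted p = 0.0135) and without hypoxia library 3 (1.06, 0.000720). It was also called with the replicate number as a block (0.0261) and with limma without trend and robust estimation. It was not called with hypoxia library 1 (0.159) or 2 (0.0818) or normoxia library 1 (0.130), 2 (0.178) or 3 (0.161) left out. ADAMTS3, the protease that CCBE1 serves, was below the filter, with 0.557, 0.721 and 0.480 FPKM in hypoxia, against 0.328, 0.195 and 0.278 FPKM in normoxia. Genes for the cleavage of VEGFC thus had values in both directions, with no rise called in the main test.

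SEMA3F, a semaphorin that competes for NRP2, had -1.16 (limma adjusted p = 0.0115). It was not called with scaling (0.0548), nor with hypoxia library 1 (0.0575) or normoxia library 2 (0.0632) or 3 (0.0520) left out. TIMP3, a matrix protein that blocks VEGFA from KDR, had 82.7, 110 and 36.8 FPKM in hypoxia, against 30.1, 31.1 and 24.8 FPKM in normoxia. Its log2 fold change was 1.25 (limma adjusted p = 0.0478), a call that ended with hypoxia library 1 (0.153) or 2 (0.0703) or normoxia library 1 (0.123), 2 (0.129) or 3 (0.142) left out. HPSE, the enzyme that frees ligands held on heparan sulfate, had 1.22 (limma adjusted p = 0.0178), a call that ended with hypoxia library 1 (0.0771) or normoxia library 2 (0.0753) or 3 (0.0673) left out. PAM, which makes the active amidated end of adrenomedullin, had 58.1 ± 5.81 FPKM in hypoxia and 47.3 ± 5.18 in normoxia (0.29, limma adjusted p = 0.196). ECE1, which cuts endothelin-1 to its active form, had 24.4, 24.0 and 51.9 FPKM in hypoxia, against 35.1, 40.6 and 58.5 FPKM in normoxia (-0.47, limma adjusted p = 0.355), with library 3 the highest in each condition. Without hypoxia library 3 ECE1 was called lower (-0.83, limma adjusted p = 0.00552), in a run where 31.2% of all tested genes were. It was not called with any other single library left out.

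Of 9 other tested angiogenic or vasoactive ligand genes none was called higher and 2, ANGPTL2 and PDGFC, were called lower. Their median log2 fold change was -0.26. Over all tested genes 5.4% were called higher and 21.1% lower, and 6.64% and 8.07% with median-ratio scaling. The count called lower as deposited is thus near the share of all genes. ANGPTL2, a secreted relative of ANGPTL4, had 17.4, 17.0 and 22.1 FPKM in hypoxia, against 35.6, 38.0 and 41.9 FPKM in normoxia (-0.999, limma adjusted p = 0.00472). PDGFC, a ligand of platelet-derived growth factor receptors, had 7.68 ± 1.03 FPKM in hypoxia and 13.2 ± 1.98 in normoxia (SD, n = 3 each; -0.71, limma adjusted p = 0.0216). With median-ratio scaling none of the 9 was called lower and 2, CCN1 (0.79, limma adjusted p = 0.0227) and PDGFA (0.62, 0.0493), were called higher; these 2 were named after their values were seen. PDGFC was also not called with hypoxia library 1 (0.0963) or normoxia library 1 (0.0649), 2 (0.0661) or 3 (0.0968) left out.

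Of the 9 ligands, 8 had an m6A peak in hypoxia and 6 in normoxia, with 12 peaks listed in hypoxia and 8 in normoxia. Among all genes of the expression table, 59.9% had a listed peak in hypoxia and 63.1% in normoxia, and among genes tested for RNA 79.8% and 85.8%. Of these peaks 11 in hypoxia and 6 in normoxia were annotated to 3′ UTRs, and 1 in hypoxia and 2 in normoxia to 5′ UTRs. Over all listed peaks 43.72% in hypoxia and 45.85% in normoxia were annotated to 3′ UTRs, and 15.94% and 17.11% to 5′ UTRs. Some of the ligand peaks share a gene, so they are not independent. The enrichments are the authors' log2 values of IP over input, without a value per library, so they have no SD here. Values from both lists are set side by side as a description, and differences between the lists were not tested. The median over all peaks was 2.27 in the hypoxia list and 2.08 in the normoxia list.

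**Figure D5:**
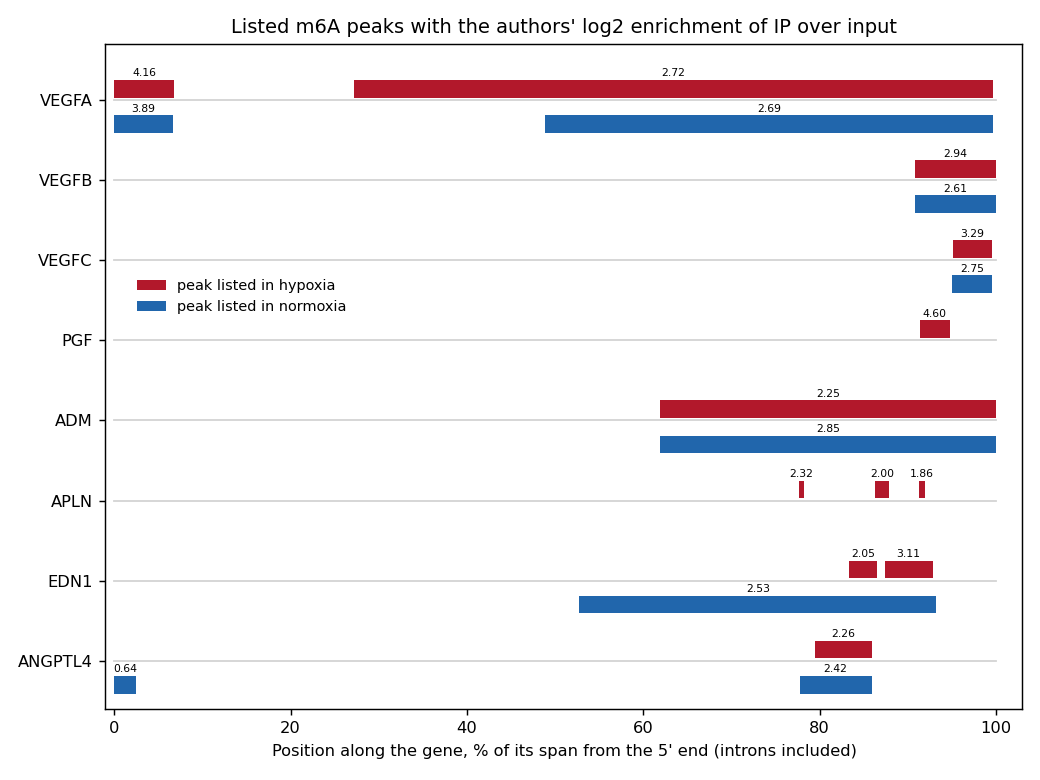
Position of the listed m6A peaks along each ligand gene, for the 8 with a peak, as a percentage of its span from the 5′ end with introns included, with hypoxia peaks in red above normoxia peaks in blue and the authors' log2 enrichment over each. Each of the 8 genes drawn has a peak toward its 3′ end, with VEGFA and, in normoxia, ANGPTL4 also holding one at the 5′ end; PGF and APLN have hypoxia peaks only.

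VEGFA held a peak at each end of the gene. The 5′ UTR peak ran from 38746052 to 38747093 on chromosome 7 in hypoxia with a log2 enrichment of 4.16, above 96.3% of the peaks of that list. In normoxia it ran from 38746052 to 38747064 with 3.89, above 94.4% of its list. The 3′ UTR peak began at 38750222 in hypoxia and at 38753538 in normoxia, ended at 38761306 in both, and had 2.72 in hypoxia and 2.69 in normoxia. These spans of 11085 bases in hypoxia and 7769 in normoxia cover much of the 15315 bases of the gene, so the listed ends do not place the mark within the UTR. The hypoxia value minus the normoxia value was 0.27 for the 5′ UTR peak and 0.03 for the 3′ UTR peak.

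VEGFB had 1 peak with the same ends in both lists (chromosome 2, 7872870 to 7873169, 3′ UTR), with a log2 enrichment of 2.94 in hypoxia and 2.61 in normoxia. VEGFC had 1 in the 3′ UTR (chromosome 15, from 39039726), which ended at 39043901 with 3.29 in hypoxia and at 39043960 with 2.75 in normoxia. ADM had 1 with the same ends in both lists (chromosome 2, 49229223 to 49230230, 3′ UTR), with 2.25 in hypoxia and 2.85 in normoxia. The difference in listed enrichment, hypoxia minus normoxia, was 0.33 for VEGFB, 0.54 for VEGFC and -0.60 for ADM. Over the 2469 genes with 1 overlapping peak in each list, the hypoxia value minus the normoxia value had a median of 0.038 and quartiles of -0.26 and 0.33.

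ANGPTL4 had a 3′ UTR peak from 70905723 on chromosome 2, to 70906261 with a log2 enrichment of 2.26 in hypoxia and to 70906410 with 2.42 in normoxia. Its 5′ UTR peak (70912765 to 70912974) was listed in normoxia only, with 0.64, above 4.53% of that list. EDN1 had 2 separate 3′ UTR peaks in hypoxia (chromosome 7, 8757241 to 8757450 with 2.05 and 8757510 to 8757869 with 3.11), against 1 broad peak in normoxia (8755203 to 8757899 with 2.53) that spans both; its value lies between theirs.

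APLN, PGF and NMB had no peak in normoxia, where their RNA was at most 0.337 FPKM. APLN had 3 peaks in hypoxia on the X chromosome, from 106237527 to 106237587 with a log2 enrichment of 1.86, from 106237916 to 106238065 with 2.00 and from 106238843 to 106238903 with 2.32. PGF had 1 in hypoxia (chromosome 7, 98149708 to 98150184) with 4.60, above 98.2% of that list. Its RNA averaged 1.69 FPKM in hypoxia, so this enrichment is taken over a low input. The authors' p-value for it was the largest among the hypoxia peaks of these ligands. NMB had no listed peak in either condition. The absence of a normoxia peak in these genes cannot be told apart from their low RNA.

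No peak of the 9 ligands appears in the authors' deposited table of differential peaks, which lists 1206 peaks with an unadjusted p under 0.05 in 1095 genes, or 8.77% of the 12482 genes with a peak in either condition. Of the 8 overlapping pairs of hypoxia and normoxia peaks on these ligands, 5 had the higher enrichment in hypoxia and 3 in normoxia. The broad normoxia peak of EDN1 is paired with each of its hypoxia peaks, with differences of -0.48 and 0.58, so the pairs are not independent. No test of these differences could be made without values per library.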

How the data were processed

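RNA FPKM of the 6 input libraries were made by the authors, per the file headers. The log2 fold changes, p-values and q-values of the authors' deposited expression table, and the log2 enrichments and p-values of the authors' deposited peak tables, were copied. The submitters' processing notes name HOMER 4.10, edgeR 4.1, StringTie 2.1.2, HISAT2 2.0.4, FastQC and fastp 0.19.4, and the build Sscrofa11.1; the tool behind each table, the peak caller and any pooling of replicates are not given in the sources used. Depth is unknown: among 1475 low genes at most 4 shared a ratio between normoxia libraries 1 and 2 (to 3 decimals), so no read counts were recovered and no counting interval is given. Summed FPKM ran from 294929 to 326804.

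FPKM were tested with limma 3.58.1 in R 4.3.3 (trend, robust) on log2(FPKM + 1), for genes that reached 1 FPKM in 3 or more libraries. FPKM were used as deposited, and this scale understates changes of low genes. The script was tested on simulated data. Ratios used an exact permutation test. Of the hypoxia peaks 3085 start 1 base before their gene and 0 at its start, so the deposited starts count from 0, and printed positions count from 1. Symbols came from the table for 13660 genes and from a table of gene names for 120 more. The members and gene lists were chosen with earlier results of these data known. From each list at most 4 called genes per direction were named, by size; PAM, ECE1, PCSK5, ADAMTS3, NRP1, the VEGF receptor genes and CALCRL were added after values were seen. Genes like VEGFA were the 3 with the highest Pearson r. Alternatives were other pseudocounts, no filter, median-ratio scaling, a replicate block, plain limma, each library left out, and stricter peak and overlap rules. Sequences of promoters, proteins and peaks were not used here.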

Additional observations from a re-analysis of the deposited data

How the results depend on the processing

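VEGFA, ADM, APLN and NMB were called higher in each alternative run. APLN and NMB reached the filter through the hypoxia libraries alone, so in the runs with that filter they had to differ. The count of ligands was 5 without a filter on low values, which adds PGF, and 5 with the replicate block, which adds ANGPTL4. It was 4 in the others. No ligand was called lower as deposited (1 at an unadjusted p under 0.05), against 0 to 2 with a library left out, and the EDN1 log2 fold change ran from -0.75 to 0.047, reversed without hypoxia library 3. With a library left out, receptors called higher ran from 1 to 2 and lower from 2 to 5, other ligands higher from 0 to 1 and lower from 1 to 4, and processing and inhibitor genes higher from 0 to 3 and lower from 2 to 10. With median-ratio scaling 2 receptors were lower, 2 other ligands higher and 0 lower, and 2 processing genes lower. Without a filter on low values 3 receptors were higher and 5 lower, and 1 other ligand and 1 processing gene were higher. With a pseudocount of 0.1, 1 processing gene was higher. The cause was not tested. With the replicate number as a block, 1 ligand was lower (VEGFC, adjusted p = 0.0132), ANGPTL4 was called higher (0.0293) and so was 1 other ligand. Same-numbered libraries deviated together at correlations of 0.586, 0.0398 and 0.697, and hypoxia library 2 was closest to normoxia library 1 (0.641), so the numbers were not taken as pairs. Without hypoxia library 3 VEGFA held 67.3% of VEGF family FPKM in hypoxia. Peaks at least 4-fold enriched numbered 10 in hypoxia and 7 in normoxia, and 6 pairs overlapped by 50% of both. Unknown depth limits the low genes PGF and NMB most.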

Other observations

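Library 3 differed from libraries 1 and 2 in the same direction in both conditions for some partner genes, named here after their values were seen. LPL, the lipase that ANGPTL4 inhibits, had 3.12, 3.48 and 9.61 FPKM in hypoxia, against 5.37, 5.35 and 13.9 FPKM in normoxia, so library 3 was the highest in each condition, as it was for ANGPTL4. ADAMTS1, a protease that binds VEGFA, had 5.22, 5.47 and 11.9 FPKM in hypoxia, against 12.5, 12.2 and 34.2 FPKM in normoxia. Neither gene passed the test (limma adjusted p = 0.452 and 0.0968), and their values turned on which library 3 was left out. With the replicate number as a block both were called lower, at -0.54 for LPL (limma adjusted p = 0.0377) and -1.20 for ADAMTS1 (0.00197). In that run 27.1% of all tested genes were called lower, and the numbers were not taken as pairs. Without hypoxia library 3 the log2 fold changes were -0.98 for LPL (limma adjusted p = 0.0371) and -1.54 for ADAMTS1 (0.0205), and without normoxia library 3 they were -0.13 (0.867) and -0.73 (0.223).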
